A study of Mus musculus with 8 samples.

Results

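Autotaxin and the receptors, phosphatases and enzymes around it were examined as a group of 10 genes, of 17492 in the table, in mouse macrophages with and without serine and glycine. The genes were Enpp2, Lpar1, Lpar5, Lpar6, Plpp1, Plpp3, S1pr1, S1pr2, Sphk1 and Sgpl1. They were taken by symbol, and the group was chosen by how some of its members differed in this same comparison, so their differences are given as a description, without p-values. The cells were macrophages matured in culture from the bone marrow of C57BL/6 mice, and total RNA was taken with Trizol and selected by its poly(A) tail on oligo-dT. Macrophages of the control group, 4 libraries labelled untreated, were in normal medium, and those of the other group, 4 libraries labelled serine deficiency, were in medium lacking serine and glycine. The time without the amino acids, any stimulus, and the sex and age of the mice are not given in the labels. Nor do the labels say whether the libraries came from separate cultures, so the spread between them may be technical.

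Lysophospholipids are signalling lipids with a single fatty acid chain. Autotaxin, a secreted enzyme, cuts the choline from lysophosphatidylcholine to make lysophosphatidic acid (LPA), which acts on a family of G protein-coupled receptors. LPA receptors fall into a family related to the sphingosine 1-phosphate receptors, which includes Lpar1, and a family related to purinergic receptors, which includes Lpar5 and Lpar6. Some membrane phosphatases of the Plpp family remove the phosphate and so end LPA signalling. Sphingosine 1-phosphate (S1P) is made by sphingosine kinases such as Sphk1, acts on S1pr receptors, and is broken down irreversibly by the lyase encoded by Sgpl1. Macrophages carry receptors for both lipids and are known to migrate and change state in response to them.

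Sequencing depth was nearly even, at 17565291 to 18201599 estimated counts per library. A gene with no counts could still have had up to 3, or 0.164 to 0.171 CPM (reads scaled to 1000000 per library after adjustment between libraries), a limit for counting error alone. Macrophage markers were abundant: the 8 genes of that list summed to between 17347 and 17770 CPM in controls and between 17961 and 18175 CPM without serine and glycine, with Lyz2 the largest part. Within the list 5 genes were higher and 3 lower: Csf1r averaged 946 and 1259 CPM, and Adgre1 5763 and 4849 CPM. The 9 fibroblast markers, of which 1 was high enough to test, summed to 4.47 to 5.33 CPM in controls and 4.38 to 5.21 CPM without the amino acids. Of 8 endothelial markers, 7 were in the table and 3 could be tested. They summed to 64.9 to 74.6 CPM in controls and 53.8 to 58.4 CPM otherwise, nearly all from Pecam1, while Cdh5, Kdr and Tek each stayed at or below 0.987 CPM in every library. Adipocyte markers summed to 18.9 to 21.3 CPM in controls and 37.4 to 40.9 CPM otherwise, nearly all Fabp4, with Adipoq at no more than 0.0559 CPM. B-cell markers summed to 43.5 to 51.3 CPM and 32.1 to 38.9 CPM, nearly all Cd79b. Neutrophil markers summed to 0.772 to 1.12 CPM in controls and 1.998 to 2.29 CPM otherwise, mostly S100a8. T-cell and dendritic-cell markers were below 2 CPM in sum in every library. Whether any of these shifts had a part in the results was not tested.

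Deprived and control libraries were compared once over 11700 genes with edgeR, and at 0.05 after adjustment 33.2% were called, 15.9% higher and 17.3% lower in the deprived libraries. Among the 10 genes, 9 had enough counts to test and 7 of these passed, 4 higher (Lpar6, Plpp3, S1pr1 and Sgpl1) and 3 lower (Enpp2, Lpar5 and S1pr2). The groups did not overlap in CPM for the same 7, against 30.7% of all genes tested. Because the group was chosen on this comparison, nothing is read from those counts. The median log2 change was 0.10 over the 9 genes and 0.0074 over all genes tested. The sizes within the group ran from a 2.34-fold difference in Enpp2 to differences of a few percent in S1pr2 and Sgpl1.

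**Figure D1:**
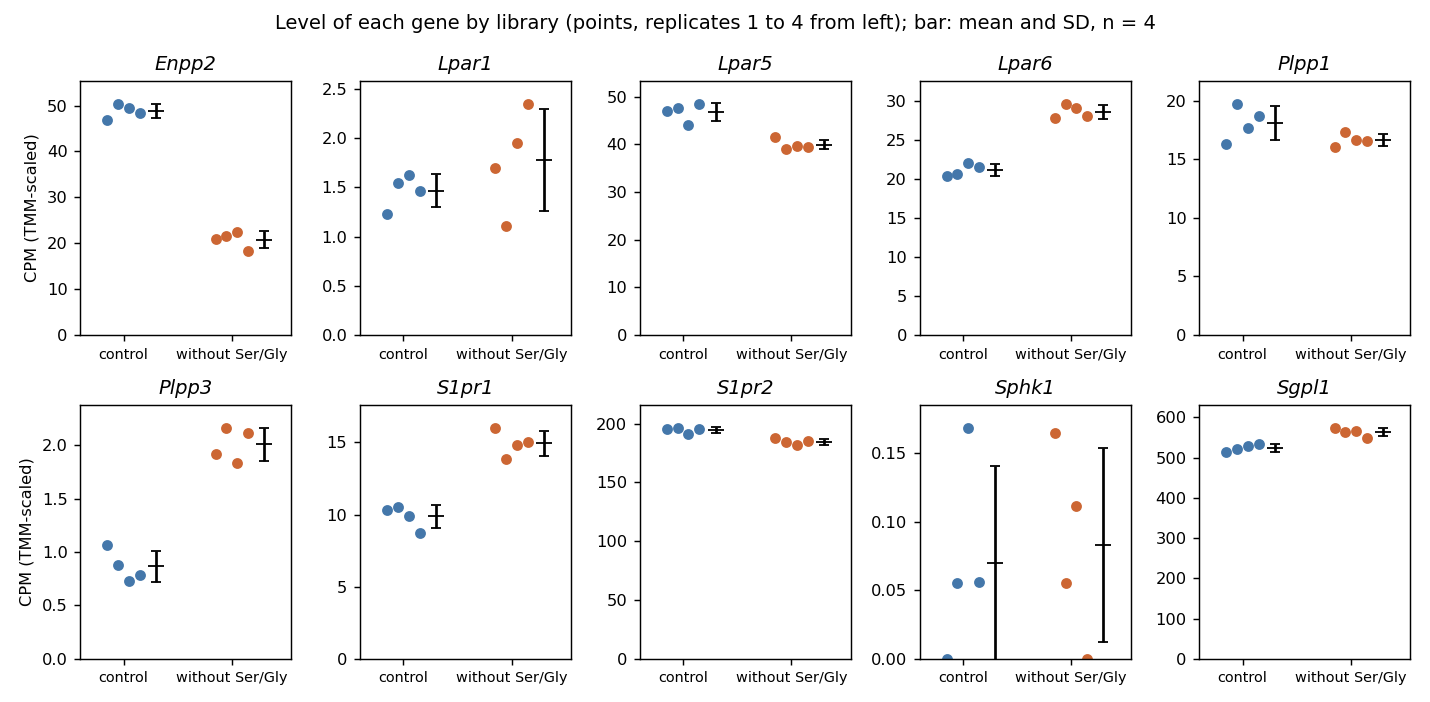
CPM of each of the 10 genes in every library, with the mean and SD (n = 4) beside the points; each vertical axis starts at 0. The Enpp2 points lie between 46.9 and 50.3 CPM in controls and between 18.3 and 22.4 CPM without serine and glycine, while those of Sphk1 stay near 0 in both groups.

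The start-site sequences of Lpar5, Lpar6 and Plpp3 are shown because Lpar5 and Lpar6 are the main LPA receptor transcripts of these cells and moved in opposite directions, and Plpp3 had the largest difference upward. Each window runs 5′ to 3′ along the gene's strand from 250 bases before to 50 bases after a RefSeq start site, on GRCm38.p6, and windows were matched for 7 of the 10 genes. Capitals mark matches, on either strand, to the TATA box (TATAAA), the CCAAT box, the motif GGGCGG, called the GC box, or the core of the antioxidant response element, TGACNNNGC. Lpar5 has a pair of annotated start sites, with windows at chr6:125067670-125067969 and chr6:125071085-125071384 on the plus strand. The Lpar6 window is at chr14:73237641-73237940 and that of Plpp3 at chr4:105157097-105157396, both on the plus strand.
Lpar5, first start site: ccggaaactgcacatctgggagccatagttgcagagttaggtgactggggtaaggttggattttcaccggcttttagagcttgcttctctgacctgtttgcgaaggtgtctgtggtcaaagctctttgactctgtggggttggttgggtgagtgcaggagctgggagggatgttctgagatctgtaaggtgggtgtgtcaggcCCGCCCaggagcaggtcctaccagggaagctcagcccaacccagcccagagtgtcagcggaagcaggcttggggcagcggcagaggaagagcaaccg
Lpar5, second start site: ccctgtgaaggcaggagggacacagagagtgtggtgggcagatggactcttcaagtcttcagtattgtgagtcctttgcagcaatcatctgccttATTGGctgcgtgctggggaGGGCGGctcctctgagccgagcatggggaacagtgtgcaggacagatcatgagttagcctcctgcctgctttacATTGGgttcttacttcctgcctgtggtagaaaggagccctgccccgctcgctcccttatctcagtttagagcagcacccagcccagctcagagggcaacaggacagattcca
Lpar6: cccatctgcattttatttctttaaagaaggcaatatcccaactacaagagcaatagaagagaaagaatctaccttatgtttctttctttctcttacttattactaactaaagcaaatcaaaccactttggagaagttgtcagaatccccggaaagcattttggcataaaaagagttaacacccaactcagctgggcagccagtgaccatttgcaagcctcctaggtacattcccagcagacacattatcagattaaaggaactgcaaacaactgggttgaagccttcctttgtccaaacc
Plpp3: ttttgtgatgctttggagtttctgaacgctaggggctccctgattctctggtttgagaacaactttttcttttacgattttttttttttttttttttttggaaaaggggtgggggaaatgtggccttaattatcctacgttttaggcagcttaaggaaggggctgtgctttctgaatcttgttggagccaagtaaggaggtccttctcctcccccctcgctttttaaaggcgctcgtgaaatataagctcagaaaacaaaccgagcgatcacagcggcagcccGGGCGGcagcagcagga

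The first Lpar5 window held 1 GC box, 47 bases before the start site, and the second held 1 GC box and 2 CCAAT boxes. Plpp3 held 1 GC box, beginning at base 34 of the transcript, and the Lpar6 window held none of the 4 motifs. Of 32851 such windows over all genes, 35.7% held a GC box, 37.4% a CCAAT box, 13.6% a TATA box and 12.4% the antioxidant core. CG dinucleotides numbered 7 and 5 in the Lpar5 windows, 1 in that of Lpar6 and 11 in that of Plpp3, against a median of 7 over all windows. These are letters in a window and do not show binding.

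Enpp2, the autotaxin gene, had the greatest fold difference downward of the group. It stood at 46.9, 50.3, 49.5 and 48.3 CPM in control replicates 1 to 4 and at 21.0, 21.5, 22.4 and 18.3 CPM in the replicates without serine and glycine. Every library without the amino acids was below every control, and replicate 4 of the deprived group was the lowest. The means were 48.7 ± 1.51 and 20.8 ± 1.79 CPM (SD, n = 4), a log2 change of -1.23 (SE 0.052), or 2.34-fold lower. Without replicate 4 of the deprived group the log2 change was -1.17. Among the 1929 genes that passed downward and averaged 5 CPM or more, Enpp2 ranked 1 by size of log2 change. Because the group was chosen on this same comparison, the rank is a description and nothing is read from it. Enpp2 (Entrez 18606) is a protein-coding gene on the minus strand of chromosome 15 at 54838901 to 54952892 (GRCm38). In the GENCODE annotation 345 of its exonic bases also lie in Gm26684, a long non-coding RNA on the other strand that was not analysed here, and the strand setting of the counting is not given in the sources used here. In bulk RNA, fewer cells that express a gene and less RNA per cell cannot be told apart, which holds for every gene below.

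The genes whose profile over the 8 libraries lay closest to that of Enpp2 were Serpina3g, Scarf2, Asb2 and Camkk1, by the root mean square difference of log2 CPM after centring each gene, among the 9750 other genes that averaged 5 CPM or more. Serpina3g, a serine protease inhibitor gene, differed by 0.125 log2 units on that measure and averaged 67.6 CPM in controls and 32.5 CPM in deprived libraries; it has close paralogs, and in 1 library its count was not whole. Scarf2, Asb2 and Camkk1 lay at 0.208, 0.216 and 0.236 log2 units. Ranked instead by Pearson correlation over the 8 libraries, the closest were Apbb1ip, Nfkbiz, Lyn and Tmtc4, with r of at least 0.996, and none of the first 4 was among them. The group difference dominates either ranking, so the likeness describes these 8 libraries and carries no test.

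Genes of other routes to LPA and lysophosphatidylcholine were read from a list of 8 besides Enpp2. Only Agk and Gdpd1 had enough counts to test. Gdpd1, which encodes a lysophospholipase D that can also form LPA, rose 1.23-fold, at 33.5 ± 1.91 CPM in controls and 41.1 ± 0.987 CPM in deprived libraries (SD, n = 4; log2 0.29 with SE 0.047, edgeR adjusted p = 1.9e-06). Its groups did not overlap. Agk, the mitochondrial acylglycerol kinase, stood at 18.5 and 19.9 CPM (log2 change 0.10, adjusted p = 0.216). Liph and Pla1a, which release LPA and lysophosphatidylserine from diacyl lipids, had means between 0.391 and 0.614 CPM and were not tested. Within the ENPP family, to which autotaxin belongs, Enpp1, the ectoenzyme that hydrolyses extracellular nucleotides, rose, at 5.71 CPM in controls and 7.31 CPM in deprived libraries (0.36 on the log2 scale, SE 0.100, adjusted p = 0.0045). Enpp5 rose too, at 4.20 and 5.24 CPM (0.32 on the log2 scale, adjusted p = 0.0362). Its call was lost without deprived replicate 1 (adjusted p = 0.198), control replicate 1 (0.0641) or control replicate 3 (0.149), and with DESeq2 (0.123). Enpp4 stood at 12.7 and 13.8 CPM (log2 change 0.12, adjusted p = 0.201).

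Among the LPA receptors, Lpar5 and Lpar6 made up nearly all of the transcripts. Lpar5, a receptor of the purinergic-related family, stood at 46.9, 47.6, 44.0 and 48.4 CPM in control replicates 1 to 4 and at 41.5, 39.1, 39.8 and 39.5 CPM without serine and glycine. All 4 deprived libraries were below all controls. The means were 46.7 ± 1.92 and 40.0 ± 1.03 CPM, a log2 change of -0.23 (SE 0.044).

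Lpar6, of the same receptor family, moved the other way. It was at 20.5, 20.7, 22.0 and 21.5 CPM in controls and at 27.8, 29.6, 29.1 and 28.1 CPM without the amino acids, again with no overlap. The means were 21.2 ± 0.739 and 28.7 ± 0.868 CPM, a log2 change of 0.44 (SE 0.053), or 1.35-fold higher. Lpar6 (Entrez 67168, chromosome 14, 73237895 to 73243294, plus strand, GRCm38) lies inside Rb1, which is read from the other strand and shares 408 exonic bases with it in GENCODE. Rb1 had 1151 to 1274 counts in controls and 1024 to 1182 without serine and glycine (log2 change -0.11, adjusted p = 0.0303), the opposite direction to Lpar6. How reads of the shared stretch were divided was not tested.

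Lpar1, the receptor related to the S1P receptors, was rare. It had 22, 28, 29 and 26 counts in controls and 31, 20, 35 and 41 without serine and glycine, so that the groups overlapped. The log2 change was 0.27 (SE 0.21) and did not pass, and it lay between 0.11 and 0.44 when single libraries were left out. Of the 3 remaining receptors, Lpar2 stood at 2.58 ± 0.349 and 2.77 ± 0.536 CPM (log2 change 0.096, adjusted p = 0.688). Lpar3 and Lpar4 averaged no more than 0.0557 CPM in either group, below the limit that a count of 0 allows.

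Levels of different genes were compared per transcript length, in TPM. The 6 LPA receptors summed to 44.4 ± 1.28 TPM in controls and 45.4 ± 1.85 TPM without serine and glycine (SD, n = 4), with overlapping groups. Within that sum Lpar5 held 60.7%, 60.7%, 55.3% and 58.0% in control replicates 1 to 4, and 47.6%, 48.4%, 47.4% and 46.5% in the deprived ones. Lpar6 held 37.4% ± 2.48 in controls and 48.4% ± 0.294 without the amino acids. The ratio of Lpar5 to Lpar6 TPM was between 1.36 and 1.71 in controls and between 0.968 and 0.992 in the deprived libraries. By the deposited TPM, Lpar5 was thus above Lpar6 in every control and narrowly below it in every deprived library. The narrow order in the deprived libraries rests on an effective length of Lpar5 that ranged over 13.6% between libraries. It was not recomputed at a common length. Within the deprived group the ranges of their TPM overlapped, at 20.3 to 23.1 and 20.9 to 23.2.

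**Figure D2:**
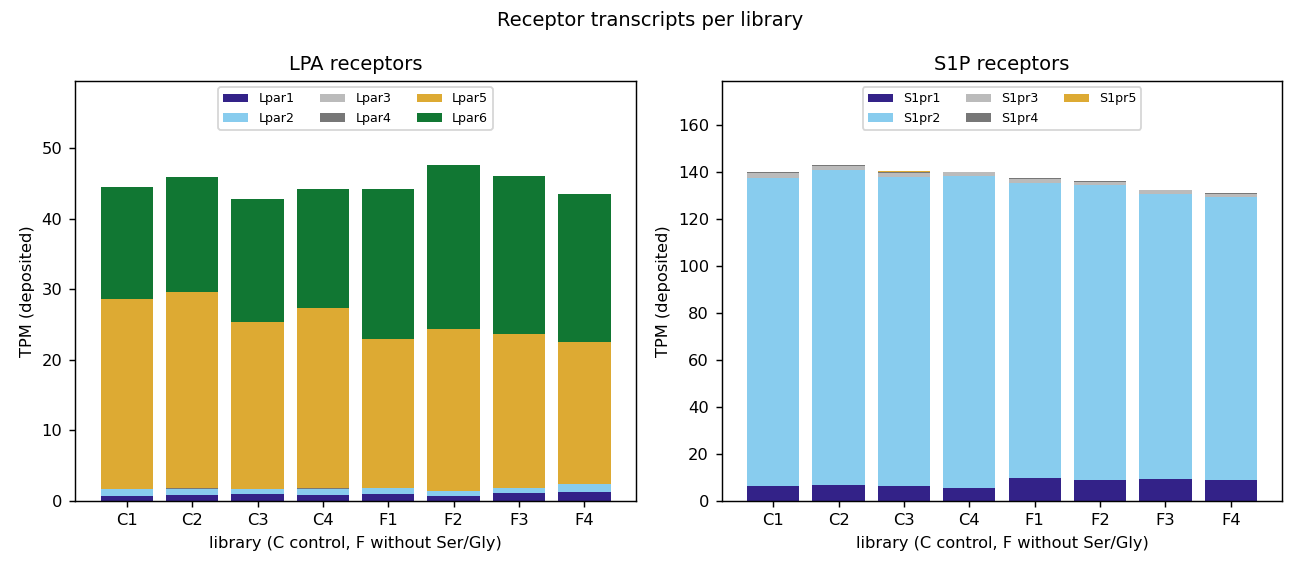
Stacked TPM of the LPA receptors (left) and the S1P receptors (right) in each library, C1 to C4 controls and F1 to F4 without serine and glycine. The LPA receptor sums lie between 42.8 and 47.7 TPM in all libraries while the Lpar6 part is larger in F1 to F4, and S1pr2 fills more than 91% of every S1P receptor bar.

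The TPM of Lpar5 rests on an effective length that differed between libraries. Derived from the ratio of counts to FPKM, it was 3110, 3122, 3403 and 3426 bases in control replicates 1 to 4 and 3508, 3089, 3246 and 3383 bases in the deprived ones, a range of 13.6%. This estimate weights the transcripts of a gene by their estimated amounts. Long and short values occurred in both groups, and controls 3 and 4, with the longer estimates, had the lower Lpar5 TPM of the controls (23.7 and 25.6 against 27.0 and 27.9). Lpar1 ranged over 6.11%, with means of 3157 and 3264 bases. For the 7 other tested genes the range was between 0.348% and 1.23%. The estimate for Enpp2 was 3085 ± 2.10 bases in controls and 3091 ± 5.31 without serine and glycine, and that for S1pr1 2877 ± 1.24 and 2884 ± 1.19. The S1pr1 groups did not overlap, nor did those of Lpar6 (means of 2319 and 2322 bases) and Plpp1 (1462 and 1465 bases). Over 7110 genes averaging 20 CPM or more, the median difference was 3.27 bases, longer in the deprived libraries.

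**Figure D3:**
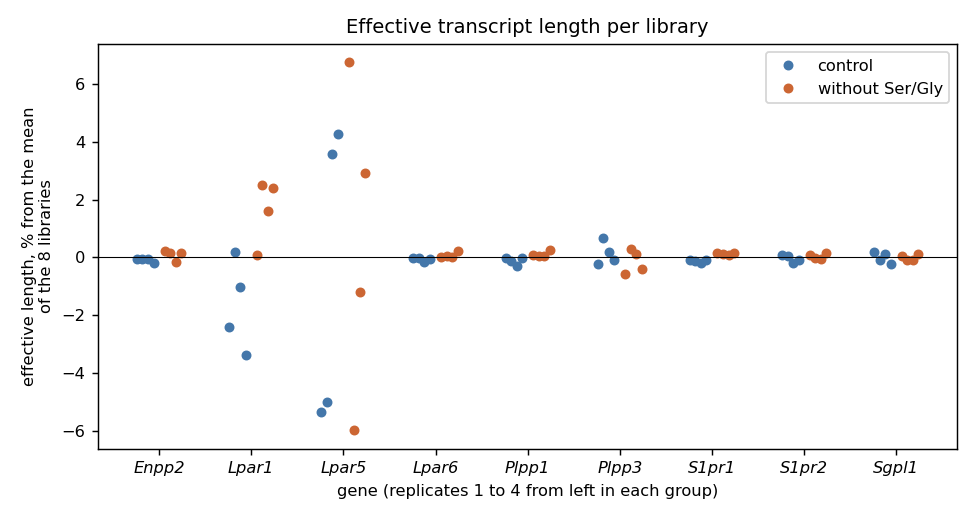
Effective transcript length of 9 of the genes in each library, as percent from that gene's mean over the 8 libraries; Sphk1 is left out for its low counts. Lpar5 spreads from about 6 percent below to almost 7 percent above its mean within the groups, whereas Enpp2, Lpar6, S1pr2 and Sgpl1 hardly vary.

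Of the phosphatases that remove LPA, Plpp3 differed most in fold but was scarce. It had 19, 16, 13 and 14 counts in controls and 35, 39, 33 and 37 without serine and glycine. Each deprived library held more than any control. The means were 0.865 ± 0.146 and 2.01 ± 0.156 CPM, a log2 change of 1.21 (SE 0.21), or 2.31-fold higher. Plpp1, the most abundant of the family in controls per length, stood at 16.3, 19.7, 17.7 and 18.7 CPM in controls and at 16.0, 17.3, 16.6 and 16.6 CPM in the deprived libraries. The groups overlapped through control replicate 1, and the log2 change of -0.12 (SE 0.064) did not pass; without that library it was -0.17 and passed, as it did at -0.16 with each library's length trend removed. Plpp1 shares 452 exonic bases with Mtrex on the other strand, whose log2 change was -0.024 (adjusted p = 0.64).

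The other family members were 4 tested genes and Plpp4, which was not analysed here. Plpp2 rose, at 14.0 ± 0.963 CPM in controls and 16.6 ± 1.77 CPM in deprived libraries (log2 change 0.24, SE 0.072, adjusted p = 0.0073), with overlapping groups, and its call was lost without deprived replicate 4 (log2 change 0.18, adjusted p = 0.0544). Plpp5 (log2 change 0.042, adjusted p = 0.703), Plpp6 (0.18, adjusted p = 0.069) and Plpp7 (-0.24, adjusted p = 0.10) did not pass. Plpp6 passed without control replicate 3 (adjusted p = 0.0246). Acp6, a mitochondrial LPA phosphatase outside the family, changed by 0.15 (SE 0.058, adjusted p = 0.0392). That call held in only 2 of the 8 fits with a library left out, those without replicate 3 of either group, and adjusted p reached 0.148 without control replicate 4. It was also lost with the replicate number as a block (0.0528), with DESeq2 (0.123), without a filter on low counts (0.067) and with each library's length trend removed (0.0953). The Plpp transcripts in the table summed to 68.6 ± 3.19 TPM in controls and 69.7 ± 2.08 TPM otherwise, and Plpp3 was 0.763% ± 0.155 and 1.70% ± 0.131 of that sum.

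S1pr2 was the leading S1P receptor transcript. This receptor couples to G12 and G13 and is known to restrain macrophage migration. It stood at 195, 196, 191 and 195 CPM in controls and at 188, 184, 182 and 185 CPM without serine and glycine, without overlap but close. The log2 change was -0.075 (SE 0.027), about 5 percent, and the difference no longer passed in 5 of the 8 fits that omit a library, those without control replicate 1 (log2 change -0.073), 2 (-0.070) or 4 (-0.074), or deprived replicate 2 (-0.073) or 3 (-0.067). Nor did it pass with library size alone (-0.066) or with the replicate number as a block (-0.075).

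S1pr1, which couples to Gi and guides cells toward S1P, differed more. It was at 10.3, 10.5, 9.93 and 8.72 CPM in controls and at 16.0, 13.9, 14.8 and 15.03 CPM in the deprived libraries, which all lay above the controls. The means were 9.87 ± 0.805 and 14.9 ± 0.877 CPM, a log2 change of 0.60 (SE 0.075), or 1.51-fold higher. Endothelial cells are rich in S1pr1. The summed endothelial markers given above were lower in the deprived libraries through Pecam1 alone. Vwf was higher, at 0.841 to 1.41 CPM in controls and 1.78 to 2.80 CPM in deprived libraries. The scarcer Cdh5 (0.393 to 0.727 and 0.572 to 0.987 CPM) and Kdr (0.221 to 0.335 and 0.274 to 0.557 CPM) reached higher but overlapped. So did Tie1 (0.0563 to 0.224 and 0.0548 to 0.400 CPM). Tek was at 0.0559 to 0.110 CPM in controls and 0.111 to 0.286 CPM in deprived libraries. The part of endothelial cells in the S1pr1 difference was not tested. Per length, S1pr1 was 4.42% ± 0.338 of the S1P receptor transcripts in controls and 6.86% ± 0.321 without the amino acids, and S1pr2 was 94.0% ± 0.463 and 91.6% ± 0.373. S1pr3 stood at 4.23 and 4.08 CPM (log2 change -0.050, adjusted p = 0.794). S1pr4, at means of 0.502 and 0.420 CPM, and S1pr5, at 0.0561 and 0.0139 CPM, were too low to test.

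Sphk1, the inducible sphingosine kinase, was at the edge of detection. It had 0, 1, 3 and 1 counts in controls and 3, 1, 2 and 0 without serine and glycine, all within the 3 counts that a count of 0 allows, so a difference was not detectable at this depth. Its paralog Sphk2 stood at 111 ± 4.12 and 111 ± 1.94 CPM (log2 change -0.0029, SE 0.032, adjusted p = 0.962), with counts that were not whole in any of the 8 libraries, and how shared reads were divided was not tested.

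Sgpl1, the S1P lyase, was the most abundant of the 10 genes, at 240 ± 5.96 TPM in controls and 253 ± 8.77 TPM without serine and glycine. In CPM it stood at 513, 521, 528 and 533 in controls and 574, 563, 566 and 549 in the deprived libraries, with no overlap. The log2 change was 0.10 (SE 0.024), a difference of 1.08-fold. On the TPM scale the groups overlapped through deprived replicate 4, at 240 TPM. Sgpp1, a phosphatase that returns S1P to sphingosine, fell, with 119 ± 0.521 CPM in controls and 101 ± 3.14 CPM in deprived libraries (-0.24 on the log2 scale, SE 0.032, adjusted p = 2.7e-08), with no overlap. The S1P exporter Spns2 stood at 0.588 and 0.908 CPM (log2 change 0.62, SE 0.29, adjusted p = 0.0933) and passed without control replicate 3 (adjusted p = 0.0439). Sgpp2, Mfsd2b, another exporter, and Apom, the plasma carrier of S1P, averaged at most 0.417 CPM and were not tested.

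Ordered by TPM in controls, the genes ran Sgpl1, S1pr2, Enpp2, Lpar5, Plpp1, Lpar6, S1pr1, Lpar1, Plpp3 and Sphk1. Enpp2 (27.2 to 29.8 TPM) overlapped Lpar5 (23.7 to 27.9), and Lpar5 overlapped Plpp1 (19.9 to 24.6), while the other neighbours were apart. Without serine and glycine Enpp2, at 12.0 ± 1.22 TPM, lay below Lpar6, Lpar5 and Plpp1, which overlapped each other between 19.5 and 23.2 TPM. It was still above S1pr1, at 9.21 ± 0.492 TPM. Plpp3, at 1.19 ± 0.0981 TPM, and Lpar1, at 0.968 ± 0.261 TPM, exchanged places, and their ranges overlapped in the deprived group.

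The wider set of lysophospholipid genes, listed by role, held 86 genes besides the 10, of which 84 were in the table and 63 were tested. Of these, 15 rose, 7 fell and 41 did not pass, so that 34.9% passed against 33.2% of all genes, and the median log2 change was 0.024. The share is close to that background.

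Receptors for other lysophospholipids showed no call: of 6 genes 3 were tested and 0 passed (edgeR; 26 of the 63 related genes had an unadjusted p under 0.05, and none of them was among these 3). P2ry10b stood at 49.8 and 52.0 CPM (log2 change 0.064, adjusted p = 0.256), Gpr132 at 6.16 and 6.57 CPM (0.093, adjusted p = 0.517) and Gpr55 at 0.785 and 0.711 CPM (-0.14, adjusted p = 0.837). Gpr34, a lysophosphatidylserine receptor, was at or below 0.182 CPM on average.

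Of 13 tested reacylation genes, whose enzymes return lysophospholipids to diacyl lipids, 2 rose, 1 fell and 10 did not pass. Agpat4, an LPA acyltransferase, rose, at 9.05 and 11.4 CPM (0.33 on the log2 scale, SE 0.086, adjusted p = 0.0022). Agpat5 changed by 0.11 (adjusted p = 0.020), a call lost without deprived replicate 1 (0.0588) or control replicate 1 (0.0611) and with DESeq2 (0.0615). Agpat3 changed by -0.081 (adjusted p = 0.0308), a call that held in only 3 of the 8 fits with a library left out, those without deprived replicate 2 or 4 or control replicate 4. The Agpat3 call was also lost with library size alone (0.0615), the replicate block (0.0629), DESeq2 (0.0563) and the length trend removed (0.0931). Of 10 genes of hydrolysis and transport, 3 rose, 0 fell and 7 did not pass. Gde1, a glycerophosphodiesterase, had the largest rise among the related genes that passed, at 58.1 ± 2.55 CPM in controls and 83.8 ± 1.56 CPM in deprived libraries (0.53 on the log2 scale, SE 0.037, adjusted p = 1.3e-15). Pnpla7, a lysophosphatidylcholine hydrolase, rose by 0.31 (adjusted p = 9.1e-10) and Abhd12, which degrades lysophosphatidylserine, by 0.18 (adjusted p = 4.4e-07).

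Of 10 phospholipases A2, whose products include lysophospholipids, 3 rose, 1 fell and 6 did not pass. Pla2g7, the secreted hydrolase of platelet-activating factor and oxidized phospholipids, rose, at 425 ± 12.1 CPM in controls and 554 ± 11.3 CPM in deprived libraries (0.38 on the log2 scale, SE 0.025, adjusted p = 1.4e-16). Pla2g16 rose, at 8.04 and 11.6 CPM (0.52 on the log2 scale, SE 0.081, adjusted p = 1.2e-06) and Pla2g12a too, at 16.8 and 19.96 CPM (0.25, adjusted p = 0.0014). The gene that fell, Pla2g4a, encodes the cytosolic phospholipase A2 that releases arachidonate. It was named after its values were seen, since it was the only fall in its list (log2 change -0.14, adjusted p = 0.0016). Of 12 tested genes that carry the signal of these receptors inward, G protein subunits among them, 2 rose, 4 fell and 6 did not pass. Gna13 (-0.11, adjusted p = 0.0011), Gnai2 (-0.080, adjusted p = 0.0055) and Gna12 (-0.13, adjusted p = 0.0129) fell. The groups of Gnai2 and of Gna12 overlapped in CPM. The call of Gna12 was lost without deprived replicate 1 (0.0536) or 3 (0.0765). The genes that rose were Gnaq (0.084, adjusted p = 0.0363), with overlapping groups, and Rock1 (0.083, adjusted p = 0.0448). Both were named after their values were seen, and their calls were not followed through the alternatives.

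**Figure D4:**
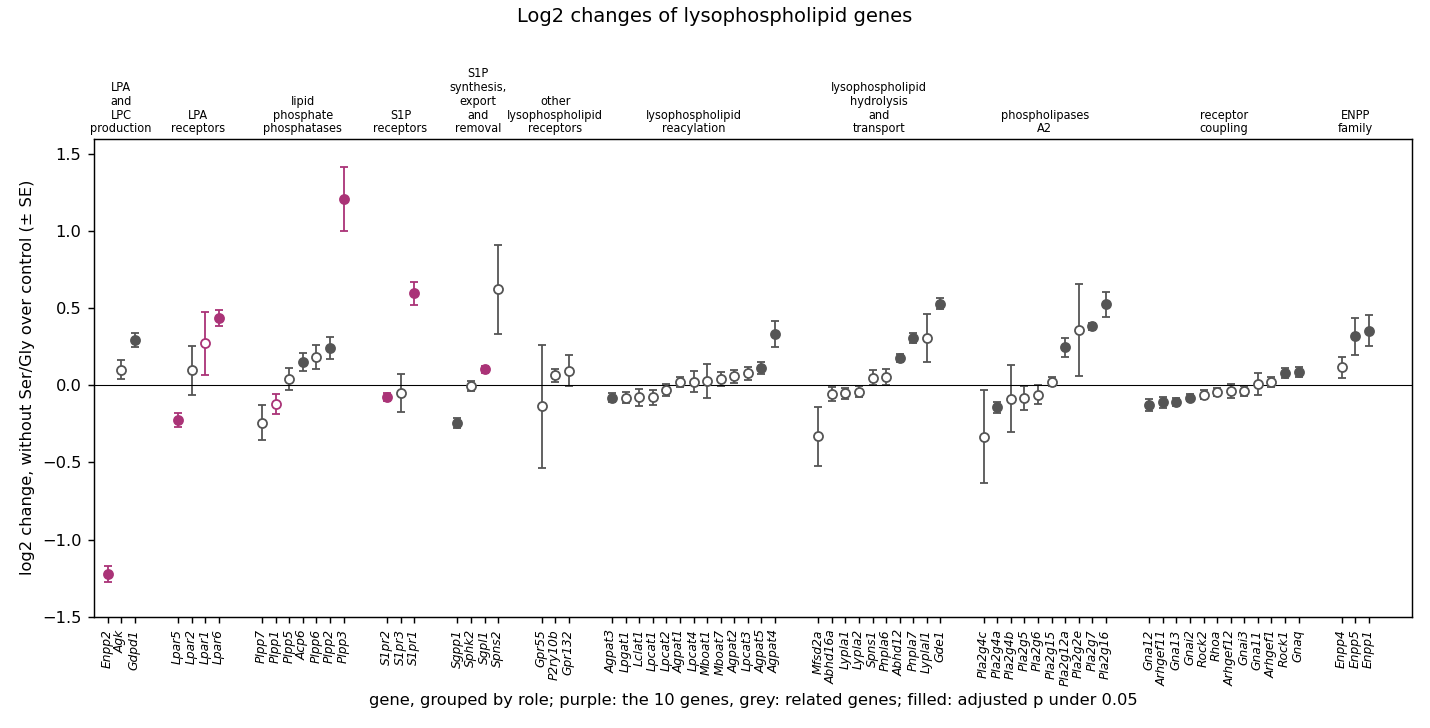
Log2 change with its SE for the 9 tested genes of the group (purple) and the 63 tested related genes (grey), ordered by role and then by size; filled points passed an adjusted p of 0.05. Enpp2 at -1.23 and Plpp3 at 1.21 stand farthest from 0, and the related genes that passed lie between -0.24 and 0.53.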

How the data were processed

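RNA sequencing of 8 libraries was analysed from a table of 17492 genes. It holds estimated counts, FPKM and TPM per library, which the authors deposited. The submitters' processing notes name BWA, Bowtie2, RSEM and GRCm38.p6, without tool versions. The authors' estimated counts, of which 8.06% to 8.47% in a library departed from a whole number by more than 1e-06, were rounded and used for all tests. The deposited FPKM served to derive effective lengths, and the deposited TPM, scaled to 1000000 per library, to compare genes. A further 6 columns, group averages, were left out.

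Low genes were removed by edgeR's filterByExpr at a count of 10 and a total of 15, libraries were scaled by TMM, and groups were compared with the quasi-likelihood F test of edgeR 4.0.16 in R 4.3.3, 4 against 4, adjusted by Benjamini-Hochberg over 11700 genes at 0.05. The SE was derived from the F statistic. Fold changes are without over with serine and glycine. Alternatives used DESeq2 1.42.0, limma 3.58.1, other scalings and filters, a replicate block, each library left out, removal of each library's loess trend with gene length (span 0.5), and a threshold of 0.01. The main edgeR fit, and no other step, was tested on simulated counts, which had the same dispersion for every gene.

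The members and lists were chosen with earlier results of these data known. A marker gene that the lists held is not reported here. Named genes were the 10, all of the receptor, phosphatase and S1P enzyme lists, and of each other list the 3 with the smallest adjusted p and any call of at least 0.5 log2 units without overlap. Annotation was GENCODE M21 and RefSeq (GRCm38).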

Additional observations from a re-analysis of the deposited data

Results flagged for a closer look

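Dixon's criterion for a library far from the other 3 of its group was applied to CPM of the 10 genes and the named related genes, 93 groups in all, and marked 5. Chance marks about 1 group in 20 where values spread normally. Gpr132 in replicate 1 without serine and glycine was at 5.65 CPM, against 6.77 to 6.96 CPM in the others of that group. The 4 remaining marks were libraries with a count or a pair of counts where the others had 0: Lpar3 in control replicate 3 (0.0561 CPM), Lpar4 in deprived replicate 2 (0.0555 CPM), S1pr5 in the same library (0.0555 CPM) and Apom in control replicate 1 (0.112 CPM). Those values lie under the limit that a count of 0 allows. A lone value above 0 among zeros is always marked, so the chance rate does not apply to them. No gene of the 10 was marked.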

How the results depend on the processing

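The log2 changes of the 10 genes kept their sign under every alternative in which they were tested. Enpp2 lay between -1.26 and -1.17, Lpar5 between -0.25 and -0.21, Lpar6 between 0.42 and 0.45, Plpp3 between 1.13 and 1.32, S1pr1 between 0.54 and 0.63 and Sgpl1 between 0.094 and 0.13, and each passed in all of them. A mean of at least 5 CPM removed Plpp3 and Lpar1. S1pr2 passed in 9 of 16 alternatives and Plpp1 in 2. The number of the 10 that passed was between 6 and 8. Since the group was chosen on this comparison and the alternatives refit the same libraries, nothing is read from these calls.

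Related genes that passed numbered 22, and 14 at an adjusted p under 0.01 (of them 4 lower), 15 with DESeq2, and 16 to 20 with single libraries left out. Over all genes tested the calls dropped too, from 3882 to 2767 at 0.01, 3061 with DESeq2 and 3384 to 3760 with single libraries left out. Related genes that were lower numbered 4 to 8 with a library left out, with 4 in the fit without deprived replicate 3. Over all alternatives, named related genes outside the 10 lost their call 29 times and gained one 2 times. Changes of sign touched only values that did not pass: Lpar2 without deprived replicate 4 (-0.031; up to 0.19 without others), Plpp5 without control replicate 3 (-0.0039; up to 0.082) and with the length trend removed (-0.00064), S1pr3 without control replicate 1 (0.0094; down to -0.11), Sphk2 by library size alone (0.0062) and without deprived replicate 2 (0.0087) or control replicates 1 (0.016; down to -0.022) or 3 (0.0069), and Gpr55 with limma-voom (0.076) and without deprived replicate 2 (0.034) or control replicate 3 (0.17; down to -0.47). The cause was not tested. The order of the 10 genes by TPM in controls was the same from counts per length, and the order in the deprived libraries was not recomputed.

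Same-numbered libraries of the groups correlated at -0.0856 to 0.0793 in their deviations, so the numbers were not taken as pairs. With the replicate number as a block, 3655 genes passed in place of 3882, 6 of the 10 in place of 7 (S1pr2 did not), and 18 related genes. Depth limits Lpar3, Lpar4, S1pr5 and Sphk1; Sphk1 was fitted only with no filter on low counts (log2 change 0.23, not past the threshold).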
